A study of Mus musculus with 20 samples.

Results

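The serum- and glucocorticoid-induced kinase genes Sgk1, Sgk2 and Sgk3 and 4 genes of their partners, Nedd4l, Ndrg1, Pdpk1 and Wnk1, were examined in the hippocampus of mice treated with dexamethasone, a synthetic glucocorticoid. The 7 genes were chosen by name, as the kinase family, its activators and its substrates, from the 57126 genes counted. The choice was made with earlier results of these data known. All 7 passed the filter on low counts, as did 18648 genes in all.

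The SGK proteins are serine/threonine kinases of the AGC class and close relatives of AKT. They become active when mTOR complex 2 and then PDPK1 phosphorylate them downstream of phosphoinositide 3-kinase. SGK1 is also controlled by its amount: its gene is a direct target of the glucocorticoid and mineralocorticoid receptors, and its RNA and protein are short-lived. SGK3 carries a lipid-binding PX domain that places it on endosomes. Active SGK1 phosphorylates the ubiquitin ligase NEDD4L, which otherwise removes sodium channels, potassium channels and transporters from the cell surface. It also phosphorylates NDRG1, whose phosphorylation serves as a readout of SGK activity, in the mouse brain among other places in oligodendrocytes. WNK1 is a chloride-sensing kinase that acts on the cation-chloride cotransporters and can itself activate SGK1.

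Hippocampal poly(A) RNA came from 20 adrenalectomized male C57BL/6 mice, read here as 1 mouse per library and 5 per group. The groups were GRA knockin mice given dexamethasone, GRA knockin mice given PBS, wild-type mice given dexamethasone and wild-type mice given PBS. Homozygous GRA knockin mice carry a replaced exon 2 of Nr3c1, the glucocorticoid receptor gene. In it the start codons of 7 shorter receptor forms are mutated and that of the full-length form GRA is intact. All mice, wild-type included, lost their adrenal glands and with them their own main source of glucocorticoid at approximately 2.5 months of age, and 2 weeks later received 1 mg per kg dexamethasone or PBS intraperitoneally. The hippocampus was taken after 6 h.

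Libraries held 11493014 to 48267708 read pairs assigned to genes. All 9 hippocampal and excitatory neuron markers were detected in every library, with a summed level of 2793 to 3069 CPM. Wild-type PBS replicates 1 and 2 held more liver transcripts (230 and 137 CPM summed over 10 markers) than the other libraries, and GRA knockin dexamethasone replicate 2 and wild-type PBS replicate 4 held the most choroid plexus transcripts (2075 and 2557 CPM over 9 markers). Nr3c1 itself was read at 111 ± 8.69 CPM in GRA knockin dexamethasone, 163 ± 24.1 in GRA knockin PBS, 98.6 ± 8.27 in wild-type dexamethasone and 136 ± 21.8 in wild-type PBS libraries (SD, n = 5 each). With dexamethasone it fell by 0.55 on the log2 scale in GRA knockin and by 0.46 in wild-type mice (edgeR adjusted p = 0.00227 and 0.0112). Counts over the whole gene check neither the genotype nor the receptor forms.

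The sequence upstream of one Sgk1 start is shown because it holds the site type through which the receptor binds DNA. The glucocorticoid response element is a palindrome of a pair of hexamers with a gap between them, searched for here as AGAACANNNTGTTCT and, more loosely, as GNACANNNTGTNC. Both patterns are their own reverse complements, so a match counts for both strands, and each full match holds a loose one. RefSeq promoter windows of 300 bases (250 before to 50 after a start, GRCm38.p6) were at hand for Sgk1 (6 starts), Pdpk1 (2) and Wnk1 (1). The Sgk1 window on chromosome 10, chr10:21993640-21993939, plus strand, held a full match, in capitals below at positions -189 to -175 of its start.

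Sgk1: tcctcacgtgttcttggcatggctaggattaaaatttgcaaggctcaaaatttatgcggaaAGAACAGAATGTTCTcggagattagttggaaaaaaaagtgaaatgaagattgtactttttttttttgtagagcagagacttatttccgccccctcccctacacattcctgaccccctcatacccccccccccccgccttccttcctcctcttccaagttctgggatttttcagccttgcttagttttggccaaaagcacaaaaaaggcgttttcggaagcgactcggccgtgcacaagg

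The full palindrome lay in 3 of 32851 windows (0.00913%), and the other windows belonged to Acnat2 and Gm35041, neither of which passed the count filter. The loose pattern lay in 156 windows (0.475%), those of 145 of 27025 genes (0.537%). The other 5 Sgk1 windows and the Pdpk1 and Wnk1 windows held neither. The Sgk1 palindrome stood 965 bases upstream of the last annotated Sgk1 start and downstream of the first 4 starts, by 1478 to 111517 bases. The 6 Sgk1 starts span 112482 bases, and gene counts do not say from which of them the RNA came. These positions are of GRCm38, whereas gene positions below are of mm39, the build of the deposited files. A match is a string of letters, not a measured binding site.

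Dexamethasone raised 4 of the 7 genes in GRA knockin mice and 3 of 7 in wild-type mice, and lowered none. Sgk1 and Sgk3 rose by about the same factor, Nedd4l rose by less, and Ndrg1 rose in GRA knockin mice. Pdpk1 and Wnk1 differed little between treatments, and Sgk2 was close to the lower end of what was counted. For comparison, 5.28% of all genes tested were called higher and 4.71% lower in GRA knockin mice, and 5.27% higher and 3.94% lower in wild-type mice (edgeR quasi-likelihood test, adjusted p below 0.05). The median log2 fold change was 0.26 over the 7 genes in GRA knockin mice and 0.17 in wild-type mice, against 0.00154 and -0.000507 over all genes. Because the 7 genes were chosen with earlier results known, this comparison with all genes is not a test of the set.

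Sgk1 (ENSMUSG00000019970.16, mm39 chromosome 10, 21758083 to 21875802, plus strand) stood at 129, 170, 139, 156 and 120 CPM in the GRA knockin dexamethasone libraries, against 54.3, 48.7, 46.0, 50.7 and 56.2 CPM in GRA knockin PBS libraries. In wild-type mice it stood at 161, 165, 105, 151 and 126 CPM under dexamethasone, against 50.4, 52.2, 47.6, 52.2 and 52.3 CPM under PBS. Every dexamethasone library lay above every PBS library, and the treated mice were spread more widely than the untreated ones. The coefficient of variation was 14.0% and 17.9% in the GRA knockin and wild-type dexamethasone groups, and 8.02% and 3.95% in the GRA knockin and wild-type PBS groups.

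The rise of Sgk1 was 2.79-fold in GRA knockin mice (log2 fold change 1.48, SE 0.12, edgeR adjusted p = 1.05e-07) and 2.78-fold in wild-type mice (1.47, SE 0.12, adjusted p = 1.43e-07). Sorted by log2 fold change, Sgk1 was the 93rd highest of 18648 genes in GRA knockin mice and the 84th in wild-type mice. This order holds called and uncalled genes alike. By fold change Sgk1 thus lay in the upper tail of the response in both genotypes, below the highest ranks.

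Sgk3 (ENSMUSG00000025915.15, chromosome 1, 9868332 to 9971070, plus strand) followed Sgk1 closely at a lower level. It stood at 25.6, 34.6, 28.6, 28.5 and 20.5 CPM in GRA knockin dexamethasone libraries, against 11.4, 9.56, 11.6, 11.1 and 11.2 CPM in GRA knockin PBS libraries. In wild-type mice the values were 30.9, 35.3, 19.5, 35.2 and 25.6 CPM under dexamethasone, against 11.4, 10.5, 11.3, 10.9 and 8.34 CPM under PBS. The treated and untreated groups did not overlap in either genotype.

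The rise of Sgk3 was 2.52-fold in GRA knockin mice (log2 fold change 1.33, SE 0.16, edgeR adjusted p = 1.31e-05) and 2.77-fold in wild-type mice (1.47, SE 0.16, adjusted p = 4.81e-06). These were the 112th and the 85th highest log2 fold changes in GRA knockin and wild-type mice, so that in wild-type mice Sgk3 stood directly after Sgk1.

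Sgk2 (ENSMUSG00000017868.17, chromosome 2, 162829250 to 162856047, plus strand), the third kinase gene of the family, was read at 26 to 109 read pairs per library. It stood at 2.29, 2.30, 1.77, 2.35 and 2.07 CPM in GRA knockin dexamethasone libraries, against 2.60, 2.86, 3.18, 3.52 and 2.26 CPM in GRA knockin PBS libraries. In wild-type mice it stood at 2.24, 3.13, 1.78, 3.07 and 2.75 CPM under dexamethasone, against 2.23, 2.57, 2.51, 3.12 and 2.25 CPM under PBS. Groups overlapped in both genotypes.

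The log2 fold change of Sgk2 was -0.43 in GRA knockin mice (95% interval -0.74 to -0.11, edgeR adjusted p = 0.0838 with an unadjusted p of 0.0101) and thus short of the threshold. In wild-type mice it was 0.01 (-0.31 to 0.34, adjusted p = 0.983). A rise of the size seen for Sgk1 or Sgk3 lies outside both intervals. The sign of the wild-type value turned with single libraries left out, between -0.07 and 0.14.

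**Figure D1:**
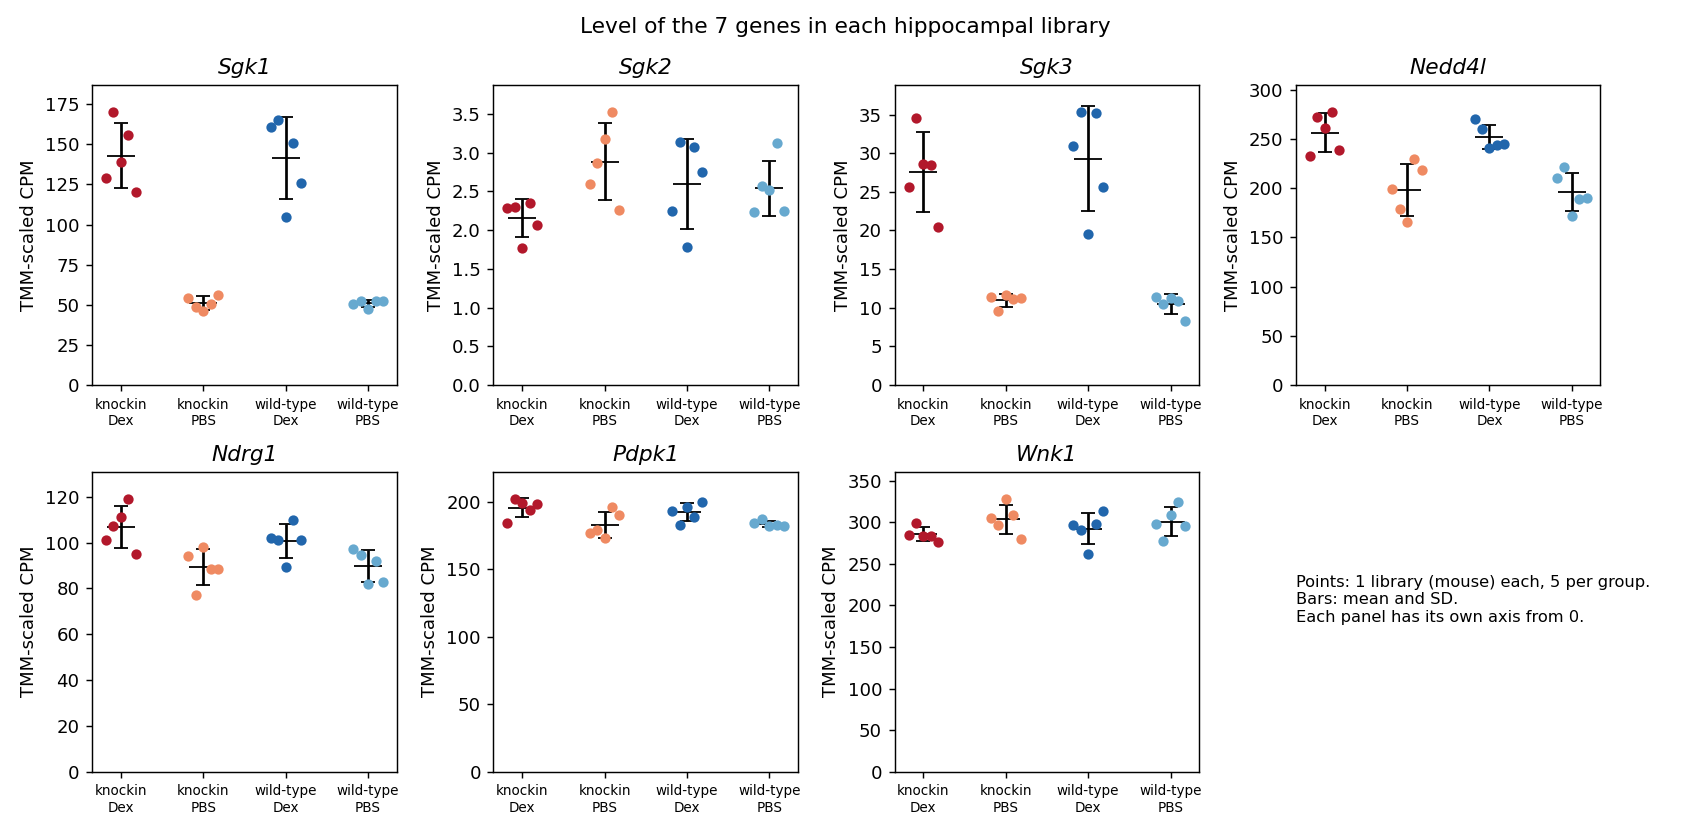
Level of each gene in TMM-scaled CPM (vertical axes, each from 0) in the 20 libraries, by group from left to right GRA knockin dexamethasone, GRA knockin PBS, wild-type dexamethasone and wild-type PBS. Points are libraries and bars give the mean and SD (n = 5). The dexamethasone points of Sgk1 (105 to 170 CPM), Sgk3 (19.5 to 35.3 CPM) and Nedd4l (233 to 277 CPM) lie above all PBS points of the same gene, and those of the other 4 genes overlap them.

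Among the substrates, Nedd4l (ENSMUSG00000024589.19, chromosome 18, 65020776 to 65350899, plus strand) stood at 233, 272, 261, 277 and 239 CPM in GRA knockin dexamethasone libraries, against 199, 179, 166, 230 and 218 CPM in GRA knockin PBS libraries. It stood at 270, 260, 241, 244 and 245 CPM in wild-type dexamethasone libraries, against 210, 221, 172, 189 and 190 CPM in wild-type PBS libraries. The groups were separate in both genotypes, narrowly in GRA knockin mice, where the lowest treated and the highest untreated library stood at 233 and 230 CPM.

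Nedd4l rose 1.29-fold in GRA knockin mice (log2 fold change 0.37, SE 0.08, edgeR adjusted p = 0.00473) and 1.28-fold in wild-type mice (0.36, SE 0.08, adjusted p = 0.00661). Non-overlapping groups were found for 8.68% of all genes in GRA knockin mice and 8.22% in wild-type mice, and for 3 of the 7 genes (Sgk1, Sgk3 and Nedd4l) in each. The antisense gene A330084C13Rik shares exon sequence with Nedd4l, and the counting ignored strand, so reads in the shared stretch cannot be told apart. That gene averaged 3.72 ± 0.757 CPM in GRA knockin dexamethasone and 2.89 ± 0.244 in GRA knockin PBS libraries (SD, n = 5 each). In wild-type mice it averaged 3.61 ± 0.807 CPM under dexamethasone and 2.95 ± 0.437 under PBS (SD, n = 5 each). Its log2 fold change was 0.36 in GRA knockin and 0.27 in wild-type mice (edgeR adjusted p = 0.162 and 0.368). Averaged over both genotypes it was called higher (0.31, edgeR adjusted p = 0.0459). Its part in the Nedd4l counts was not tested.

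Ndrg1 (ENSMUSG00000005125.14, chromosome 15, 66801167 to 66841489, minus strand), the SGK substrate, stood at 101, 107, 111, 119 and 95.2 CPM in GRA knockin dexamethasone libraries, against 94.3, 77.0, 98.1, 88.6 and 88.5 CPM in GRA knockin PBS libraries. In wild-type mice it stood at 102, 101, 89.4, 110 and 101 CPM under dexamethasone, against 97.0, 94.6, 81.7, 92.0 and 82.8 CPM under PBS. Treated mice were higher on average, and the groups overlapped in both genotypes.

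Ndrg1 was 1.19-fold higher in GRA knockin mice (log2 fold change 0.26, SE 0.07, edgeR adjusted p = 0.0189). In wild-type mice it differed by 0.17 (SE 0.07, adjusted p = 0.168), which did not pass, and the difference between the genotypes' responses did not pass either (0.09, 95% interval -0.12 to 0.29, adjusted p = 1.00). The GRA knockin call was lost without GRA knockin PBS replicate 2 (0.21, adjusted p = 0.0553) and without GRA knockin dexamethasone replicate 4 (0.21, adjusted p = 0.0612). It was also lost with no filter on low counts (0.26, adjusted p = 0.0508) and without the pair of libraries highest in choroid plexus transcripts (0.25, adjusted p = 0.0504). Averaged over both genotypes, Ndrg1 was higher by 0.21 (SE 0.05, adjusted p = 0.00361), a call that held in every alternative run, the highest adjusted p being 0.0133.

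Pdpk1 (ENSMUSG00000024122.17, chromosome 17, 24292654 to 24369898, minus strand), the activating kinase, varied little. It averaged 195 ± 7.19 CPM in GRA knockin dexamethasone, 183 ± 9.64 in GRA knockin PBS, 192 ± 6.51 in wild-type dexamethasone and 184 ± 1.92 in wild-type PBS libraries (SD, n = 5 each). The log2 fold change was 0.09 in GRA knockin mice (95% interval 0.02 to 0.17, edgeR adjusted p = 0.117) and 0.07 in wild-type mice (-0.01 to 0.14, adjusted p = 0.323). Groups overlapped in both genotypes, and the intervals leave room for a rise of at most 0.17 log2 units.

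In the mean response of both genotypes Pdpk1 passed the test (log2 fold change 0.08, SE 0.03, edgeR adjusted p = 0.0289). That comparison called 5 of the 7 genes higher (Sgk1, Sgk3, Nedd4l, Ndrg1 and Pdpk1), and none lower, against 9.79% of all genes higher and 8.41% lower. The Pdpk1 call did not survive the omission of any single one of 7 libraries, namely wild-type PBS replicate 3, wild-type dexamethasone replicates 3 and 5, GRA knockin PBS replicates 1, 2 and 3 and GRA knockin dexamethasone replicate 2 (0.07 to 0.08, adjusted p 0.0510 to 0.0672). In GRA knockin mice alone Pdpk1 passed without GRA knockin PBS replicate 4 (0.12, adjusted p = 0.0326) or GRA knockin dexamethasone replicate 1 (0.12, adjusted p = 0.0495).

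Wnk1 (ENSMUSG00000045962.17, chromosome 6, 119900930 to 120015633, minus strand), the chloride-sensing kinase gene, averaged 285 ± 8.37 CPM in GRA knockin dexamethasone, 304 ± 17.5 in GRA knockin PBS, 292 ± 19.2 in wild-type dexamethasone and 301 ± 17.5 in wild-type PBS libraries (SD, n = 5 each). The log2 fold change was -0.09 in GRA knockin mice (95% interval -0.19 to 0.00, edgeR adjusted p = 0.272) and -0.04 in wild-type mice (-0.13 to 0.06, adjusted p = 0.720). Neither passed, groups overlapped in both genotypes, and the gene total does not separate Wnk1 transcripts.

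Per length of exon, the order of the genes changed with treatment. In wild-type PBS libraries Ndrg1 was highest at 31.0 ± 2.42 RPKM, followed by Pdpk1 at 25.4 ± 0.265, Wnk1 at 24.5 ± 1.43, Nedd4l at 20.4 ± 2.01, Sgk1 at 12.6 ± 0.496, Sgk3 at 2.57 ± 0.305 and Sgk2 at 0.770 ± 0.110 (SD, n = 5). The ranges of Pdpk1 and Wnk1 overlapped there, as did those of Wnk1 and Nedd4l, and the other neighbours were separate. The GRA knockin PBS libraries had the same order of means, and there Ndrg1 and Pdpk1 overlapped too.

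Under dexamethasone Sgk1 stood level with Ndrg1 at the top of this order. In GRA knockin dexamethasone libraries Ndrg1 averaged 36.9 ± 3.17 and Sgk1 35.2 ± 4.93 RPKM, and in wild-type dexamethasone libraries Sgk1 averaged 35.0 ± 6.27 and Ndrg1 34.8 ± 2.53 RPKM (SD, n = 5 each). The ranges of both genes overlapped in each genotype. Sgk3 reached 6.75 ± 1.26 RPKM in GRA knockin and 7.18 ± 1.66 RPKM in wild-type dexamethasone libraries and kept its place between Nedd4l, Pdpk1 and Wnk1 above it and Sgk2 below it. These lengths are of all annotated exons together, so RPKM is a minimum where a short transcript is the one used.

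None of the 7 genes was called between genotypes under either treatment or for the difference of its responses (edgeR adjusted p = 1.00 each). The background was 0% in all 3 comparisons: no gene among 18648 passed, with 828 genes at an unadjusted p below 0.05 under dexamethasone, 673 under PBS and 527 for the difference of the responses. DESeq2 and limma-voom called 0 genes in these comparisons too. The GRA knockin and wild-type values of all 7 genes overlapped under both treatments, and genotypes that did not overlap were found for 0.788% of genes under dexamethasone and 0.670% under PBS. Under dexamethasone, GRA knockin minus wild-type was 0.01 on the log2 scale for Sgk1 (95% interval -0.22 to 0.25), -0.07 for Sgk3 (-0.38 to 0.24) and 0.02 for Nedd4l (-0.15 to 0.20). Under PBS it was 0.01 for Sgk1 (-0.25 to 0.26), 0.07 for Sgk3 (-0.30 to 0.44) and 0.01 for Nedd4l (-0.16 to 0.19).

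The difference of the responses, GRA knockin minus wild-type, was 0.01 for Sgk1 (95% interval -0.34 to 0.35), -0.14 for Sgk3 (-0.62 to 0.34) and 0.01 for Nedd4l (-0.23 to 0.25). The estimate farthest from 0 was that of Sgk2, at -0.44 (-0.89 to 0.01, edgeR unadjusted p = 0.0559). The intervals for Pdpk1 (-0.08 to 0.13) and Wnk1 (-0.19 to 0.08) were the narrowest. The data thus leave room for a genotype difference of up to about 0.35 log2 units in the Sgk1 response, against a response of 1.48 in GRA knockin and 1.47 in wild-type mice.

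**Figure D2:**
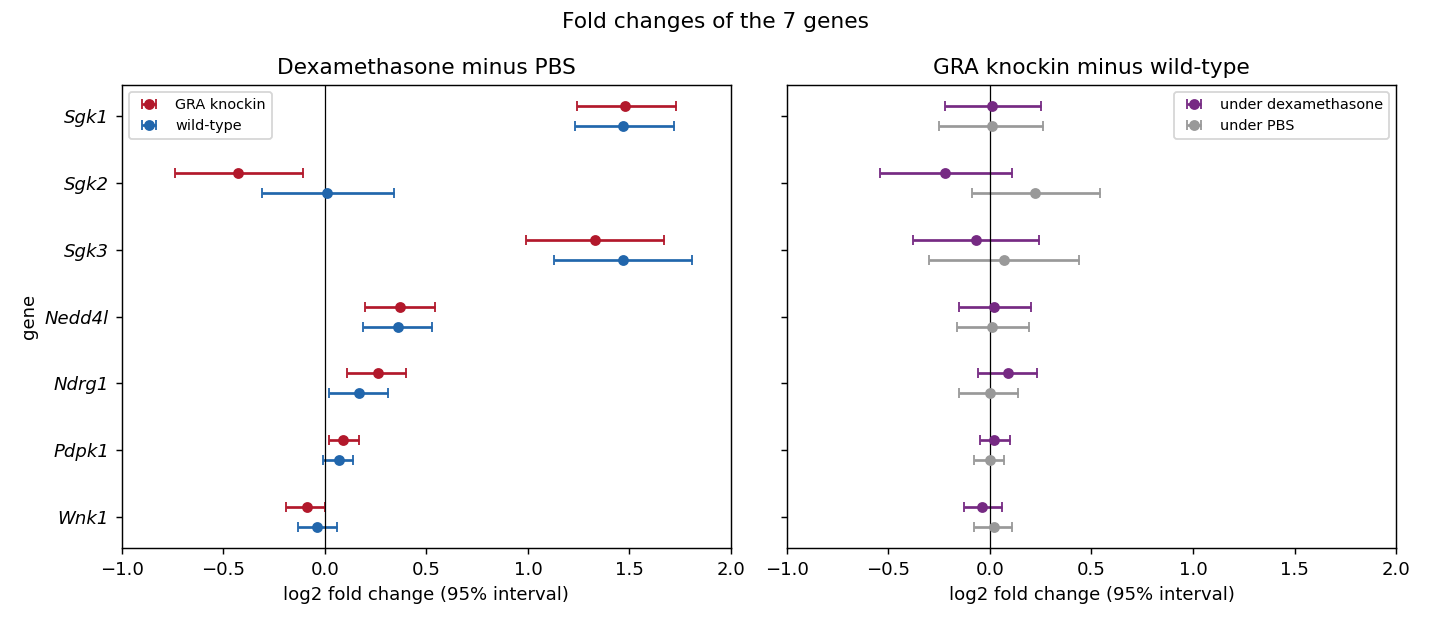
Log2 fold changes (horizontal axes) of the 7 genes with 95% intervals from edgeR, for dexamethasone minus PBS in GRA knockin and wild-type mice on the left and for GRA knockin minus wild-type under dexamethasone and PBS on the right. On the left the points of both genotypes lie close together for Sgk1 (1.48 and 1.47) and Nedd4l (0.37 and 0.36) and farthest apart for Sgk2 (-0.43 and 0.01), and on the right every interval spans 0.

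Within the 10 dexamethasone libraries, mice with more Sgk1 RNA also had more Sgk3 RNA. Pearson's r was 0.93 (permutation test p = 0.00011, adjusted p = 0.00176) and Spearman's rho 0.88 (permutation test p = 0.00153, adjusted p = 0.017). Without the 2 libraries farthest from the median of Sgk1, r was 0.85, and with each genotype centred on its own mean it was 0.94. In the 10 PBS libraries r was -0.09 (permutation test p = 0.804) and rho -0.31 (permutation test p = 0.387), and whether the dexamethasone and PBS values differ was not tested. These were 16 relations, Sgk1 with 8 genes in each treatment, chosen after the values were seen, and the adjustment is over the 16.

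Both genes were lowest among treated mice in wild-type dexamethasone replicate 3 and GRA knockin dexamethasone replicate 5. Sgk3 stood at 19.5 and 20.5 CPM there, with Sgk1 at 105 and 120 CPM. Next came wild-type dexamethasone replicate 5 and GRA knockin dexamethasone replicate 1, with Sgk1 at 126 and 129 CPM. All of these were also lowest among treated libraries on the first principal component of log2 CPM over all tested genes (26.2% of variance). They stood at 10.5 to 13.1 on it, the other treated libraries at 21.7 to 23.7 and PBS libraries at -27.9 to -8.37. The part of this wider difference in the relation of Sgk1 and Sgk3 was not tested. Sgk1 and Nedd4l had r = 0.76 in the dexamethasone libraries (permutation test p = 0.0139, adjusted p = 0.1), short of the threshold after adjustment, and r = 0.68 in the PBS libraries (permutation test p = 0.0314, adjusted p = 0.1). Tsc22d3, another gene induced by the receptor, had r = 0.69 with Sgk1 (permutation test p = 0.0229, adjusted p = 0.1) and rho = 0.87 (permutation test p = 0.00212, adjusted p = 0.017), and without the 2 farthest libraries r was 0.54.

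**Figure D3:**
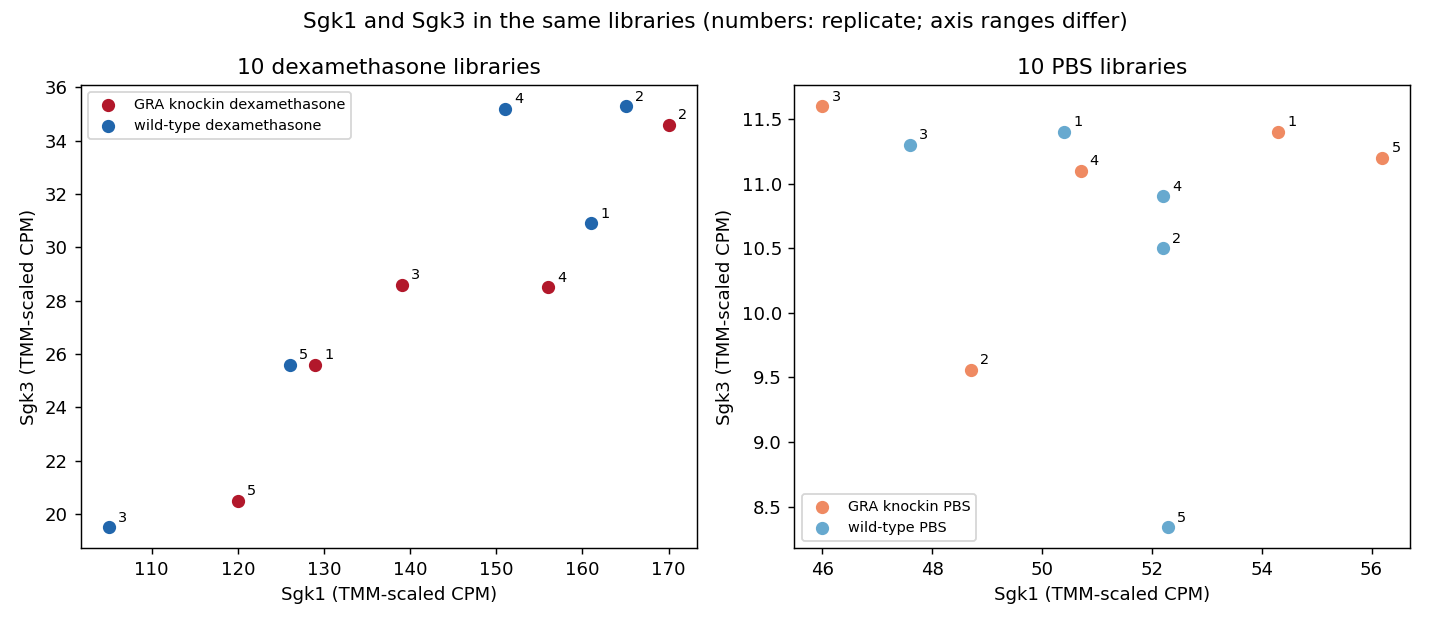
Sgk3 (vertical) against Sgk1 (horizontal), both in TMM-scaled CPM, in the 10 dexamethasone libraries on the left and the 10 PBS libraries on the right. Each point is 1 library with its replicate number, and the axes cover different ranges. Treated mice line up from low to high (r = 0.93), and untreated mice show no such order (r = -0.09).

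Some markers of other cells changed with treatment, while the summed oligodendrocyte and astrocyte levels overlapped between treatments in both genotypes. Summed over 10 oligodendrocyte and myelin markers the level was 4794 to 5735 CPM in GRA knockin dexamethasone, 4854 to 6633 in GRA knockin PBS, 3814 to 5556 in wild-type dexamethasone and 5011 to 5542 in wild-type PBS libraries, with no marker at 0. The lowest sum was in wild-type dexamethasone replicate 3, the library lowest among treated mice in Sgk1 and Sgk3. Without it the wild-type log2 fold changes were 1.57 for Sgk1 and 1.60 for Sgk3 (edgeR adjusted p = 2.93e-09 and 6.69e-08). Of these 10 markers 4 fell in GRA knockin mice (Opalin, Aspa, Ermn and Cnp) and 3 in wild-type mice (Opalin, Aspa and Ermn). For comparison, 4.71% of all genes tested were called lower in GRA knockin mice and 3.94% in wild-type mice. Cnp stood at -0.30 in GRA knockin and -0.24 in wild-type mice (edgeR adjusted p = 0.0398 and 0.120). In bulk tissue fewer cells of a type and less RNA per cell cannot be told apart.

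Some endothelial markers also changed, in both directions. Their sum over 8 genes was 337 to 408 CPM in GRA knockin dexamethasone and 273 to 306 in GRA knockin PBS libraries, and 337 to 431 CPM in wild-type dexamethasone and 286 to 307 in wild-type PBS libraries, so that treated and untreated mice did not overlap. Over the same 8 genes the median log2 fold change was -0.17 in GRA knockin and -0.07 in wild-type mice. In each genotype 2 were called higher, and 3 were called lower in GRA knockin and 1 in wild-type mice. The glucose transporter gene Slc2a1 (1.25 in GRA knockin and 1.18 in wild-type mice, log2) and Ly6c1 (0.62 and 0.53) rose. Tek, a vascular receptor gene, fell (-0.52 and -0.55). Cldn5, Pecam1 and Emcn were called in neither genotype. Flt1 (-0.19) and Cdh5 (-0.34) fell in GRA knockin mice and stood at -0.13 and -0.20 in wild-type mice (edgeR adjusted p = 0.224 and 0.176), with differences of responses of -0.06 and -0.14 (adjusted p = 1.00 each). Astrocyte markers summed to 2370 to 2674 CPM in GRA knockin dexamethasone and 2335 to 2737 in GRA knockin PBS libraries. In wild-type mice they summed to 2404 to 2553 CPM under dexamethasone and 2415 to 2645 under PBS. Of these 8 markers, 2 were called higher (Aldh1l1 and Gjb6) and 1 lower (Aqp4) in each genotype. Of all genes tested, 5.28% were called higher and 4.71% lower in GRA knockin mice, and 5.27% and 3.94% in wild-type mice. These shares are the background for the endothelial counts too. No neuron, choroid plexus or liver marker was called in either genotype, and no marker of any list was at 0 in a group. For choroid plexus and liver the lack of a call does not show a lack of change. Their median log2 fold changes were 0.38 and 0.66 in GRA knockin and -0.88 and -1.39 in wild-type mice. Single markers varied widely, as with Ttr in wild-type mice (-2.19, SE 1.29). The part of the oligodendrocyte, astrocyte and endothelial markers in the changes of Sgk1, Sgk3, Nedd4l and Ndrg1 was not tested.

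Without the pair of libraries highest in liver transcripts, Sgk1, Sgk3 and Nedd4l rose by 1.48, 1.51 and 0.45 in wild-type mice, and without the pair highest in choroid plexus transcripts they rose by 1.41, 1.24 and 0.35 in GRA knockin mice (log2).

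The wider pathway was read from 8 lists of 78 genes, of which 76 were tested; the sodium channel subunit genes Scnn1b and Scnn1g were below the count filter. In GRA knockin mice 10 of the 76 rose and 4 fell, against 5.28% of all genes called higher and 4.71% lower (10.0% in either direction). In wild-type mice 12 rose and 4 fell, against 5.27% higher and 3.94% lower (9.21% in either direction). The same shares are the background for the counts of each list below. The lists were made with earlier results of these data known, so the counts are not a test of the pathway. The median log2 fold change was 0.02 in both genotypes. No list gene was called between genotypes or for the difference of the responses (background 0%). Of the calls, 11 of 14 in GRA knockin and 11 of 16 in wild-type mice held in every alternative run.

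Among 14 genes of SGK activation, 2 rose and 1 fell in GRA knockin mice, and 3 rose and 2 fell in wild-type mice. The pair of genes for the paralogous mTOR complex 2 subunits moved in opposite directions. Prr5, for the subunit PROTOR1, stood at 9.35, 9.84, 8.31, 8.49 and 8.81 CPM in GRA knockin dexamethasone libraries, against 5.06, 3.23, 3.77, 4.08 and 3.83 CPM in GRA knockin PBS libraries. In wild-type mice Prr5 stood at 8.87, 10.3, 8.84, 8.52 and 10.0 CPM under dexamethasone, against 4.22, 5.50, 3.27, 2.89 and 4.30 CPM under PBS. Its treated and untreated groups were far apart, with a log2 fold change of 1.15 in GRA knockin mice (SE 0.12, edgeR adjusted p = 2.30e-07) and 1.18 in wild-type mice (SE 0.12, adjusted p = 1.80e-07).

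Prr5l, for PROTOR2, ran from 8.56 to 12.2 CPM in GRA knockin dexamethasone and from 12.4 to 17.0 in GRA knockin PBS libraries, and from 8.13 to 11.8 CPM in wild-type dexamethasone and from 13.5 to 14.9 in wild-type PBS libraries, with no overlap in either genotype. It fell by 0.48 on the log2 scale in GRA knockin mice (edgeR adjusted p = 0.00132) and by 0.45 in wild-type mice (adjusted p = 0.00380). Pik3r1, for the main regulatory subunit of phosphoinositide 3-kinase, rose by 0.18 in GRA knockin and 0.22 in wild-type mice. Pik3r3, for another regulatory subunit, stood at -0.14 in GRA knockin mice (adjusted p = 0.0521), short of the threshold but past it in several other settings, and fell by 0.20 in wild-type mice. The complex 2 scaffold gene Rictor stood at 0.11 in GRA knockin mice (adjusted p = 0.0673), also short of it, and rose by 0.13 in wild-type mice. The difference of the responses had an edgeR adjusted p of 1.00 for both.

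Of 10 other AGC kinases that PDPK1 activates, 1 rose and 2 fell in each genotype. Akt2, for an AKT kinase of insulin signalling, averaged 48.9 ± 3.77 CPM in GRA knockin dexamethasone and 65.1 ± 4.69 in GRA knockin PBS libraries, and 49.0 ± 2.86 CPM in wild-type dexamethasone and 63.9 ± 1.97 in wild-type PBS libraries (SD, n = 5 each). It fell by 0.41 in GRA knockin mice and by 0.38 in wild-type mice on the log2 scale (edgeR adjusted p = 2.14e-06 and 1.12e-05). The ribosomal S6 kinase gene Rps6ka1 fell by 0.51 in GRA knockin and by 0.31 in wild-type mice (adjusted p = 5.79e-06 and 0.00335), a difference of -0.20 that did not pass (unadjusted p = 0.0479, adjusted p = 1.00). The one called higher was Rps6ka2 in GRA knockin mice, at 0.15 there and 0.09 in wild-type mice (adjusted p = 0.0377 and 0.297). In wild-type mice it was Rps6kb1, at 0.12 in GRA knockin and 0.16 in wild-type mice (adjusted p = 0.0975 and 0.0243). Their differences of responses were 0.06 and -0.04 (edgeR adjusted p = 1.00 each).

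Of 6 genes for SGK1 turnover and binding, 1 rose in each genotype. It was Tsc22d3, which encodes GILZ, a partner of SGK1 in sodium channel control, with a log2 fold change of 1.82 in GRA knockin mice and 1.70 in wild-type mice. Tsc22d3 is a well-known receptor target, and its rise in these libraries was known when the list was made. None of the 10 NEDD4 family ligases and adaptors passed in either genotype, with a median of -0.01 in GRA knockin and -0.00 in wild-type mice. Of 3 other NDRG genes, Ndrg3 passed in GRA knockin mice (0.10, adjusted p = 0.0433), with a similar value short of the threshold in wild-type mice (0.09, adjusted p = 0.0699) and a difference of responses of 0.01.

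Among 15 genes of WNK signalling and cation-chloride cotransport, 2 rose and 1 fell in GRA knockin mice, and 2 rose in wild-type mice. Wnk2, a relative of Wnk1, averaged 146 ± 3.97 CPM in GRA knockin dexamethasone and 118 ± 4.81 in GRA knockin PBS libraries, and 147 ± 6.12 CPM in wild-type dexamethasone and 117 ± 9.19 in wild-type PBS libraries (SD, n = 5 each). It rose by 0.30 in GRA knockin and 0.33 in wild-type mice on the log2 scale (edgeR adjusted p = 1.53e-05 and 6.09e-06). Klhl2, for a ligase adaptor that targets WNK kinases, rose by 0.20 in each genotype.

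Slc12a7, for the potassium-chloride cotransporter KCC4, averaged 4.88 ± 0.470 CPM in GRA knockin dexamethasone and 7.30 ± 0.263 in GRA knockin PBS libraries, and 5.75 ± 0.743 CPM in wild-type dexamethasone and 6.77 ± 0.905 in wild-type PBS libraries (SD, n = 5 each). It fell by 0.58 in GRA knockin mice (edgeR adjusted p = 0.000172), and the value of -0.21 in wild-type mice did not pass (adjusted p = 0.251). The difference of -0.37 between the responses had an unadjusted p of 0.0139 and did not pass the adjustment (edgeR adjusted p = 1.00).

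Of 9 tested channels and transporters under SGK1 or NEDD4L control, 1 rose in GRA knockin and 2 in wild-type mice. Slc9a3r2, for the scaffold NHERF2, which links SGK1 to ion transporters, rose by 0.34 in GRA knockin and 0.23 in wild-type mice. The potassium channel gene Kcnq3 stood at 0.07 in GRA knockin mice (adjusted p = 0.370), which did not pass, and rose by 0.14 in wild-type mice, with an adjusted p of 1.00 for the difference of the responses. Of 10 signalling substrates, 2 rose in GRA knockin and 3 in wild-type mice. The transcription factor genes Foxo1 (0.24 in GRA knockin and 0.16 in wild-type mice) and Foxo3 (0.19 and 0.30) rose in both, and Htt, the huntingtin gene, stood at 0.09 in GRA knockin mice (adjusted p = 0.221), which did not pass, and rose by 0.18 in wild-type mice.

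Several of these small changes rested on few libraries. In GRA knockin mice Foxo3 lost its call without PBS replicate 3 or dexamethasone replicate 2 of that genotype. Rps6ka2 did so without any 1 of GRA knockin PBS replicates 1 to 3 and GRA knockin dexamethasone replicates 2 to 4. Ndrg3 did so without any 1 of 12 of the 20 libraries. In wild-type mice Rps6kb1 lost its call without PBS replicate 5 or dexamethasone replicate 4, and Foxo1 without PBS replicate 3 or 5 or dexamethasone replicate 1. Rictor lost it without PBS replicate 3 or 5 or dexamethasone replicate 3, 4 or 5, Kcnq3 without PBS replicate 1, 2 or 5 or dexamethasone replicate 1, 4 or 5, and Slc9a3r2 without PBS replicate 1, 3 or 4 or dexamethasone replicate 1, 2 or 5. Losses also came from other settings: with the compared libraries alone for Foxo3, Rps6ka2, Ndrg3, Rictor and Kcnq3, and with no count filter for Ndrg3 and Rictor. They came without the libraries high in choroid plexus transcripts for Foxo3, Rps6ka2, Ndrg3 and Slc9a3r2, and without those high in liver transcripts for Rps6ka2, Ndrg3 and Kcnq3. Rps6ka2 was also lost with limma-voom, and Ndrg3 with DESeq2 size factors and the replicate block. Over single-library omissions and these other settings together, the highest adjusted p was 0.0762 for Foxo3, 0.139 for Rps6ka2 and 0.154 for Ndrg3 in GRA knockin mice, and 0.0902 for Rps6kb1, 0.114 for Foxo1, 0.113 for Rictor, 0.250 for Kcnq3 and 0.105 for Slc9a3r2 in wild-type mice. Some values short of the threshold passed elsewhere. In GRA knockin mice Pik3r3 passed in 6 of 20 single-library omissions and 5 of 9 other settings (lowest adjusted p = 0.0313), Rictor in 1 of each (lowest 0.0442) and Rps6kb1 in 1 omission (0.0306), and in wild-type mice Ndrg3 passed in 1 of each (lowest 0.0303).

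**Figure D4:**
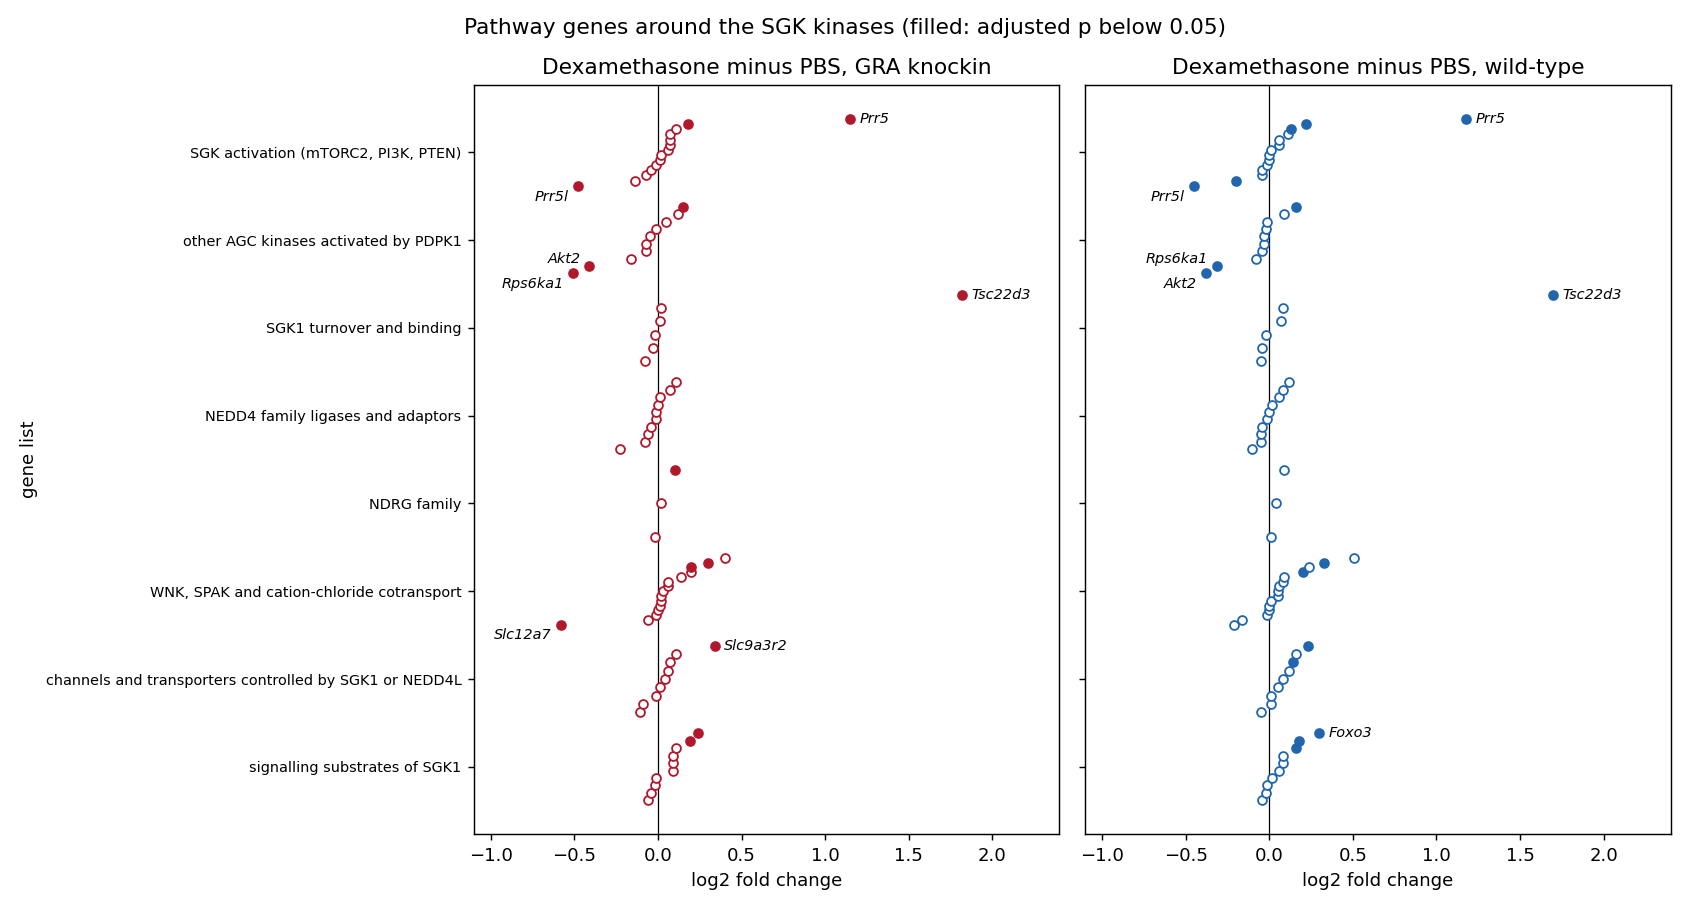
Log2 fold change with dexamethasone (horizontal axes) of the 76 tested pathway genes by list (rows), in GRA knockin mice on the left and wild-type mice on the right. Each point is a gene, ordered by value within its list, and filled points passed the test (edgeR adjusted p below 0.05), with some called genes left unlabelled. Most points lie near 0, with Tsc22d3 (1.82 and 1.70) and Prr5 (1.15 and 1.18) far above it.

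The genes whose pattern over the 20 libraries was most like that of each called gene were found among 12682 genes, by the root-mean-square difference of log2 CPM centred on each gene's own mean. For Sgk1, whose own values spread by 0.749 about their mean, they were Hacd2, for an enzyme of very-long-chain fatty acid elongation (0.131), Heph, for the ferroxidase hephaestin (0.150), Smim3 (0.151) and Sgk3 (0.152). For Sgk3 (0.726) they were Tma16 (0.133), Sgk1 (0.152), Ddc, for aromatic amino acid decarboxylase (0.169), and Slc25a13, for the mitochondrial aspartate-glutamate carrier citrin (0.178). Sgk1 and Sgk3 were thus each among the 4 genes nearest to the other. The distance covers libraries of both treatments, so a similar dexamethasone response alone brings genes near each other. The log2 fold changes of the genes named here were 1.19 to 1.64 in GRA knockin and 1.30 to 1.58 in wild-type mice.

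For Nedd4l (0.222) the nearest were Add2 (0.0492), for a membrane skeleton protein, Exoc6b (0.0531), for an exocyst subunit, Ppp1r16b (0.0542) and Orai2 (0.0600), for a calcium channel subunit. For Ndrg1 (0.153) they were Psme4 (0.0836), Dpy19l4 (0.0875), Pdcl (0.0883) and Cd2ap (0.0895). For Pdpk1 the nearest genes, Rgs7bp (0.0392), Otud6b (0.0393), Ctcf (0.0395) and Zfr (0.0396), differed from it by an amount not far below its own spread (0.0626).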

How the data were processed

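Each library's deposited file gives unnormalized counts, in read pairs for every gene, which the authors made with featureCounts 2.0.6 on the GENCODE M34 basic annotation, without strand, per the file headers. Per the submitters' processing notes, reads were handled with STAR 2.5.1, Subread 1.5.1 (a version other than in the headers) and DESeq2 1.38.3 on mm39. Libraries were 75-base paired-end. Of 57126 identifiers 51884 matched a symbol in a GRCm38 names table, used for names alone.

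The counts were fitted with edgeR 4.0.16 in R 4.3.3 (quasi-likelihood, robust, TMM scaling) over all 20 libraries, 1 term per group, after filterByExpr (minimum count 10, minimum total 15), with Benjamini-Hochberg adjustment over 18648 genes. CPM is the TMM-scaled count relative to library size, and RPKM is CPM per length of annotated exon. Should libraries share a mouse, the p-values reflect technical spread. Depth of 11493014 to 48267708 pairs sets counting error, which matters most for Sgk2. The 40 pairs of libraries within groups differed by more than sampling noise. The fit was also run on simulated counts, with changes set in the wild-type dexamethasone libraries alone. All set changes were larger than those of Nedd4l, Ndrg1 and Pdpk1, so that run does not bear on changes as small as theirs.

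Every listed gene was named, from each pathway list called genes up to 4 per direction, and for each called gene the 4 most alike. The genes, pathway lists and marker lists, and the choice of libraries high in liver or choroid plexus transcripts, were made with earlier results of these data known. Alternatives were the size factors of DESeq2 1.42.0, its own test, limma-voom (limma 3.58.1), no count filter, a stricter one (50 counts, 5 libraries), the compared libraries alone, a replicate block, and leaving out each library or those high in liver or choroid plexus transcripts. Correlations, added after seeing the data, used 100000 permutations.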

Additional observations from a re-analysis of the deposited data

Results flagged for a closer look

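Among 28 groups of 5 libraries (7 genes in 4 groups), 1 held a library far from the others. Sgk3 stood at 9.56 CPM in GRA knockin PBS replicate 2, against 11.1 to 11.6 CPM in the other 4 libraries of that group, a gap of 0.755 of the group's whole range. Chance flags about 1 in 20 groups. Sgk1 in the same library, at 48.7 CPM, lay within the range of its group (46.0 to 56.2 CPM).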

How the results depend on the processing

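The calls of Sgk1, Sgk3 and Nedd4l held in both genotypes under every alternative run, with highest adjusted p of 5.60e-06, 0.000104 and 0.0277 in GRA knockin and 6.15e-05, 0.000505 and 0.0250 in wild-type mice. Ndrg1 in GRA knockin mice lost its call with no filter (0.26) and without the libraries high in choroid plexus transcripts (0.25), and ranged from 0.21 to 0.29 with single libraries left out. Pdpk1 ranged from 0.07 to 0.12 there. The mean response of Pdpk1 lost its call with no filter (0.08), without libraries high in liver (0.08) or choroid plexus transcripts (0.07), and ranged from 0.07 to 0.09 with single libraries left out. The wild-type value of Sgk2 was -0.03 without the libraries high in liver transcripts and -0.07 to 0.14 with single libraries left out. With only the compared libraries, 1 gene was called between genotypes under dexamethasone, Cd74 (-1.05, adjusted p = 0.0211), named after its value was seen and none of the 7. The cause was not tested.

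Genotype values near 0 turned sign: Sgk1 under PBS (-0.01 with no filter, -0.02 to 0.04 with single libraries left out), Sgk1 under dexamethasone (-0.06 without libraries high in choroid plexus transcripts, -0.08 to 0.07), and the Sgk1 difference of responses (-0.02 by limma-voom, -0.07 without libraries high in choroid plexus transcripts, -0.09 to 0.07). Without the libraries high in liver transcripts so did Wnk1 under PBS (-0.03, and -0.01 to 0.04) and the Nedd4l difference of responses (-0.09, and -0.05 to 0.07). With single libraries left out Nedd4l under PBS spanned -0.05 to 0.07, Sgk3 under PBS -0.01 to 0.11 and Sgk3 under dexamethasone -0.20 to 0.01. Without the 2 libraries farthest from the median of Sgk1, r turned to -0.13 with Wnk1 under dexamethasone, and under PBS to -0.09 with Pdpk1 and 0.39 with Tsc22d3.

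Replicate numbers did not pair the samples: same-numbered libraries had correlations of -0.11 to 0.25 (30 pairs), others -0.27 to 0.22 (120 pairs), and 6 of 20 libraries were closest to their own number. The replicate block called 1843 genes in GRA knockin and 1643 in wild-type mice, against 1864 and 1717 without it, and changed no call among the 7 genes; Ndrg3 in GRA knockin mice lost its call (0.10, adjusted p = 0.0547).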
